A study of Homo sapiens with 6 samples.

Results

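Transcripts of the ligands of NKG2D were measured by RNA sequencing in MDA-MB-231, a triple-negative breast adenocarcinoma line. The genes were chosen by symbol as MICA, MICB, ULBP1, ULBP2, ULBP3, RAET1E, RAET1G and RAET1L, and all 8 had a row among the 17100 transcripts of the deposited table. The study compared 3 libraries of cells given vehicle with 3 libraries of cells given 1 µM guadecitabine (SGI-110) for 96 h and left without drug for 24 h before harvest. The methods describe independent experiments of this line, and the compound used as vehicle is not given in the sources used here. All libraries come from a single established line that was grown without immune cells, so surface protein and killing by natural killer cells were not measured. Guadecitabine releases decitabine, which is built into replicating DNA and traps the methyltransferases that copy CpG methylation.

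NKG2D is an activating receptor of natural killer cells and of several T cell subsets. Its ligands resemble MHC class I molecules but present no peptide, and they appear on stressed, infected or transformed cells. MICA and MICB are transmembrane proteins encoded beside HLA-B in the MHC, whereas the ULBP and RAET1 proteins are encoded in a separate cluster on the long arm of the same chromosome and lack the membrane-proximal domain of the MIC proteins. Ligands can be cut from the cell surface by metalloproteinases, and the loss of surface ligand is a known way for tumors to escape these lymphocytes.

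The vehicle libraries held 17602570 to 22277442 counts in total and the guadecitabine libraries 8792127 to 21410849. Vehicle replicate 3 stood apart, with 20 transcripts at a count of 0, where the other 5 libraries had 1593 to 2517. Over 533 genes with at most 1 count in each of vehicle replicates 1 and 2 and at least 11 counts in all over the guadecitabine libraries, this library held a median of 7.1 counts per kb of exon. Counts were tested in 1 fit across all 13322 genes that passed a filter on low counts, with the quasi-likelihood test of edgeR, and a gene was called at an adjusted p under 0.05. VIM had the highest level per kb among 7 markers of MDA-MB-231, of which 7 were tested, 3 rose and 2 fell. Of 9 hormone receptor and luminal markers, 6 were tested, 1 rose and 4 fell. Beside each count of called markers here, 19.3% of all genes tested rose and 18.4% fell. The hormone receptor genes ESR1 and PGR had at most 1 count in each library other than vehicle replicate 3. The keratin genes KRT8 and KRT18 of the same list were high, at means of 11530 and 9438 normalized counts per kb in vehicle. All 7 lymphocyte markers with a row were below the filter. Their summed level was 4.87 to 41.4 normalized counts per kb in vehicle, highest in replicate 3, and 7.98 to 20.2 in guadecitabine, and 2 of the 7 were at 0 in vehicle replicates 1 and 2. Of 8 myeloid and other blood cell markers, 5 were tested, 2 rose (CD68 and FCER1G) and 1 fell (CSF1R). Their summed level was 1750 to 2020 normalized counts per kb in vehicle and 4310 to 4410 in guadecitabine, and 2 of the 8 were at 0 in vehicle replicates 1 and 2. Most of this sum was CD68, with a mean of 1666 normalized counts per kb in vehicle and 4035 in guadecitabine. The part of these markers in the results on the ligands was not tested.

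After guadecitabine, 4 of the 8 ligand genes rose and 1 fell. ULBP2 and RAET1L showed the largest changes of the 8, ULBP2 at 2.85-fold and RAET1L at 2.67-fold, while MICA and MICB rose 1.52-fold and 1.51-fold. RAET1G fell to 0.568 of its vehicle level. ULBP1, ULBP3 and RAET1E did not pass the test. All 8 passed the filter. Of all genes tested, 37.7% were called, 19.3% as higher and 18.4% as lower, and the median log2 fold change was 0.60 for the 8 ligand genes against 0.02 for all genes tested. The libraries of the groups did not overlap for the 5 ligand genes called, and over all genes tested the guadecitabine libraries were all above the vehicle libraries for 26.7% and all below for 24.9%. The samples are bulk RNA, in which more cells with a transcript and more transcript per cell cannot be told apart.

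**Figure D1:**
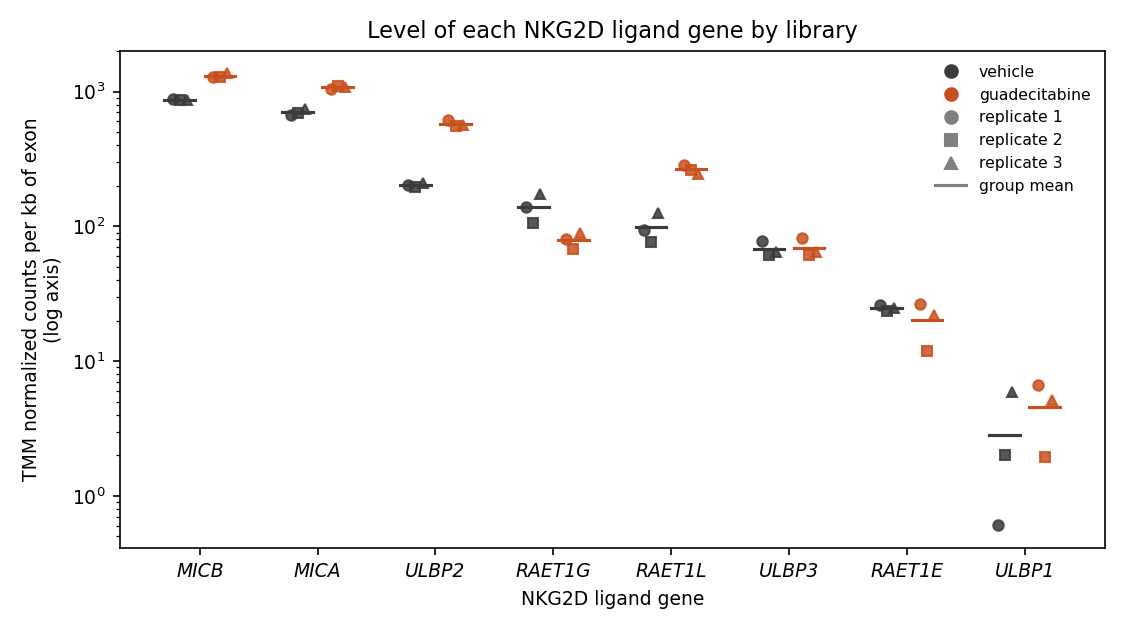
TMM normalized counts per kb of exon (y axis, log scale) of each ligand gene (x axis) in 3 vehicle and 3 guadecitabine libraries, with a horizontal line at each group mean. The guadecitabine points sit above the vehicle points for MICB, MICA, ULBP2 and RAET1L and below them for RAET1G, and they overlap for ULBP3, RAET1E and ULBP1.

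MICA and MICB encode transmembrane ligands. The promoter windows that RefSeq gives for the pair, 250 bases before to 50 after the start, are shown because the genes moved together. All sequences here are read 5′ to 3′ on the strand of the gene, with each CpG, the site at which DNA methyltransferases act, in capitals. On GRCh37 they lie at chr6:31371122-31371421 for MICA and chr6:31465672-31465971 for MICB, both on the plus strand.
MICA: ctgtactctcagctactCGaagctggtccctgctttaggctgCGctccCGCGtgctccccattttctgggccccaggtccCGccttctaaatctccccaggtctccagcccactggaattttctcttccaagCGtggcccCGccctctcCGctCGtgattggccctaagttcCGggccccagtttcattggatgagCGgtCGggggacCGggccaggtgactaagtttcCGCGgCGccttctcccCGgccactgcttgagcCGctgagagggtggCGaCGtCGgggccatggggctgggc
MICB: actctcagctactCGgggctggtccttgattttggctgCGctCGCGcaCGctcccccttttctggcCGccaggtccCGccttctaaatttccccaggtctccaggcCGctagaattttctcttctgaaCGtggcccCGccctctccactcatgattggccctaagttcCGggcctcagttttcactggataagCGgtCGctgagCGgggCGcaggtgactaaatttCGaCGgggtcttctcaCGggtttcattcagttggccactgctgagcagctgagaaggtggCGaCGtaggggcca
The windows were 86.6% identical over 284 aligned bases and held 21 CpG sites in MICA and 20 in MICB, where the median of 35116 RefSeq promoter windows was 14. Each held the heat shock unit GAANNTTC once, which was found in 6.77% of the windows, and the GC box GGGCGG once (45.0%). The CCAAT box, present in 34.6%, was found at 2 places in MICA and 1 in MICB. The transcripts counted in the table start upstream of these windows, at 31367561 for MICA and at 31462658 for MICB, so the windows belong to other transcripts of the genes.

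Normalized counts are given on the scale of TMM, which adjusts library totals for composition, set to the mean total of 17911210 counts. MICA had 1517, 1574 and 1688 normalized counts in the vehicle libraries and 2371, 2476 and 2450 in the guadecitabine libraries. Its mean was 1593 ± 87.2 (SD, n = 3) in vehicle and 2432 ± 54.5 (SD, n = 3) in guadecitabine. Every treated library was above every vehicle library, and the log2 fold change was 0.61 (SE 0.097, edgeR adjusted p = 0.00129). MICB had 2108, 2091 and 2087 normalized counts in vehicle and 3101, 3114 and 3294 in guadecitabine. The vehicle libraries of MICB lay closer together than those of any other ligand gene relative to their mean, at 2095 ± 11.1 (SD, n = 3), against 3170 ± 108 (SD, n = 3) after treatment. Its log2 fold change was 0.60 (SE 0.092, edgeR adjusted p = 0.00107). The log2 ratio of MICB to MICA per kb averaged 0.304 ± 0.085 (SD, n = 3) in vehicle and 0.289 ± 0.048 (SD, n = 3) in guadecitabine, with overlapping libraries. The two-sided exact permutation p was 0.9, where the smallest that 3 against 3 libraries can give is 0.1. Against a threshold of 1.5-fold, neither gene was called, with an edgeR adjusted p of 0.695 for MICA and 0.768 for MICB.

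ULBP2 and RAET1L encode ligands that are attached to the membrane by a lipid anchor. RAET1G lies beside ULBP2 in the cluster and is close to both in sequence. The windows of the 3 genes are shown because ULBP2 and RAET1L rose and RAET1G fell. They lie at chr6:150262900-150263199 on the plus strand for ULBP2, and on the minus strand at chr6:150346619-150346918 for RAET1L and chr6:150244208-150244507 for RAET1G, on GRCh37.
ULBP2: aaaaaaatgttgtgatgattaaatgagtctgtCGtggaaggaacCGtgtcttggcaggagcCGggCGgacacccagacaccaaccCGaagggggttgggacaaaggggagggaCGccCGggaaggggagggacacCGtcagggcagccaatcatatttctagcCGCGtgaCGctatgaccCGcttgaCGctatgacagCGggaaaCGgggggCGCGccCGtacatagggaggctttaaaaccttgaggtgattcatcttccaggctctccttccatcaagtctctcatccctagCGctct
RAET1L: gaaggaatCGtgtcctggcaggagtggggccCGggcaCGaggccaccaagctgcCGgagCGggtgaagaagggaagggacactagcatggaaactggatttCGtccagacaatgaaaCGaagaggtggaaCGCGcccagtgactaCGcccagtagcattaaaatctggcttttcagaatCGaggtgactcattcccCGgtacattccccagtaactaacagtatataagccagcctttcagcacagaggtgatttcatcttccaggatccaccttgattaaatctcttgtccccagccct
RAET1G: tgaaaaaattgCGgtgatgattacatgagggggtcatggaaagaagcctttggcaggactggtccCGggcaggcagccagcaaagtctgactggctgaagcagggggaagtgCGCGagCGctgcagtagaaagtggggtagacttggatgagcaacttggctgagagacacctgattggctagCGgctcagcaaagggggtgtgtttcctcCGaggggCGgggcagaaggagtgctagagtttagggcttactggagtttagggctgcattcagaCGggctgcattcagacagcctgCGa
ULBP2 held 19 CpG sites, RAET1L 12 and RAET1G 10, so that RAET1L and RAET1G had fewer than the median window and ULBP2 had more. The best local alignment of ULBP2 and RAET1L covered 78 bases at 73.1% identity. That of ULBP2 and RAET1G covered 73 bases at 79.5%, and that of RAET1G and RAET1L 55 bases at 76.4%. The core TGACG of the cyclic AMP response element was found at 3 places in ULBP2, and in 24.6% of all windows. The window of ULBP1, which was not called, also held it at 3 places. None of the motifs searched, which also included the TATA box TATAAA (11.5% of windows) and the E-box CACGTG (7.26%), was found in the RAET1L window. RAET1G held the GC box and the CCAAT box once each. Motifs were searched on both strands. DNA methylation was not measured in these libraries.

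ULBP2 had 284, 276 and 295 normalized counts in vehicle and 860, 781 and 795 in guadecitabine. The groups were far apart relative to their spread, at 285 ± 9.86 (SD, n = 3) and 812 ± 42.2 (SD, n = 3). The log2 fold change of ULBP2 was 1.51 (SE 0.103, 95% interval 1.28 to 1.74, edgeR adjusted p = 9.55e-06), the smallest adjusted p of the 8. RAET1L had 75.2, 61.2 and 99.9 normalized counts in vehicle and 230, 210 and 198 in guadecitabine. Its lowest treated library was above its highest vehicle library, which was replicate 3. The means were 78.8 ± 19.6 (SD, n = 3) and 212 ± 16.2 (SD, n = 3), with a log2 fold change of 1.42 (SE 0.206, 95% interval 0.95 to 1.88, edgeR adjusted p = 0.000746). Without vehicle replicate 3 the log2 fold change was 1.54 for ULBP2 and 1.64 for RAET1L. Both genes were also called against the threshold of 1.5-fold.

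RAET1G was the ligand gene that fell. It had 146, 110 and 182 normalized counts in vehicle and 83.4, 71.2 and 92.8 in guadecitabine. Every treated library was below every vehicle library, but the vehicle libraries were spread widely, at 146 ± 36.2 (SD, n = 3) against 82.5 ± 10.8 (SD, n = 3). Its log2 fold change was -0.82 (SE 0.231, 95% interval -1.34 to -0.30, edgeR adjusted p = 0.0216). This call was lost when vehicle replicate 1 (edgeR adjusted p = 0.0628) or guadecitabine replicate 2 (edgeR adjusted p = 0.0548) was left out, and against the threshold of 1.5-fold (edgeR adjusted p = 0.318). Without vehicle replicate 3, its log2 fold change was -0.62 (edgeR adjusted p = 0.0375).

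**Figure D2:**
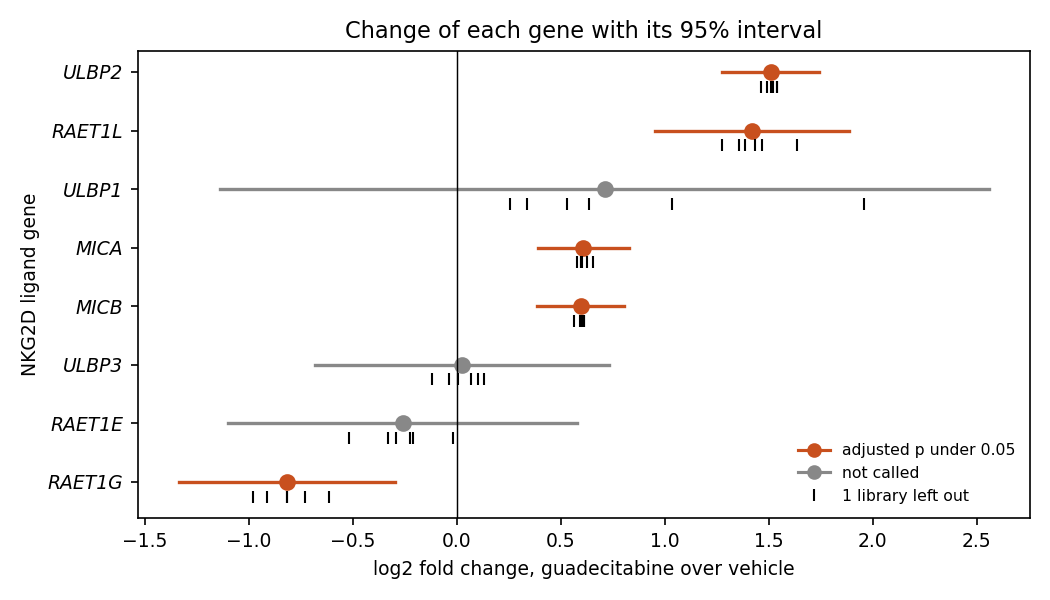
Log2 fold change of guadecitabine over vehicle (x axis) for each ligand gene (y axis), with its 95% interval as a line and short marks for the values after removal of single libraries. The intervals of ULBP2, RAET1L, MICA, MICB and RAET1G lie clear of 0, and the marks of ULBP1 run from 0.254 to 1.957.

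For ULBP1, ULBP3 and RAET1E the differences between the groups were within the spread of the libraries. ULBP3, which encodes another lipid-anchored ligand, had 57.1, 45.4 and 47.7 normalized counts in vehicle and 59.9, 44.8 and 47.4 in guadecitabine. The groups overlapped throughout, at 50.1 ± 6.22 (SD, n = 3) and 50.7 ± 8.08 (SD, n = 3), and the 95% interval of the log2 fold change ran from -0.68 to 0.73. The ULBP3 window, at chr6:150390208-150390507 on the minus strand of GRCh37, is shown because it was the richest in CpG of the windows of the 8 genes.
ULBP3: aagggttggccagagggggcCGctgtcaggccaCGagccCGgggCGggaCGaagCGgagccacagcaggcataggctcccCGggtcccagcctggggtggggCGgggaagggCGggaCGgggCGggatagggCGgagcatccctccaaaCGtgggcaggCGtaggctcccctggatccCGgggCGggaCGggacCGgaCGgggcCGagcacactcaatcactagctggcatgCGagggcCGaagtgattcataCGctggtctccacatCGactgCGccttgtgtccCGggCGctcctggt
It held 27 CpG sites, more than 71.8% of all windows, and the GC box at 6 places. RAET1E encodes a transmembrane ligand and had 53.3, 48.6 and 50.7 normalized counts in vehicle and 55.0, 24.4 and 45.4 in guadecitabine. Guadecitabine replicate 2, the library with the smallest total, was the lowest, and its value rested on 12 counts. For RAET1E the log2 fold change was -0.26 with a 95% interval of -1.10 to 0.58, and RefSeq gave the gene 3 promoter windows with 6, 5 and 3 CpG sites.

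ULBP1 was close to the limit of detection. It had 2, 6 and 24 counts in the vehicle libraries and 26, 3 and 16 in the guadecitabine libraries, over 3142 bp of exon. The highest vehicle value came from replicate 3, the library that stood apart. The log2 fold change was 0.71 with a 95% interval of -1.14 to 2.56 (edgeR adjusted p = 0.528). Without vehicle replicate 3 it was 1.96 (edgeR adjusted p = 0.0300), so this library decided the call, and 5 ligand genes rose in place of 4. Its vehicle level was 2.83 normalized counts per kb with all libraries, 1.31 without vehicle replicate 3 and 1.04 when the background was subtracted from that library. Its promoter window held 26 CpG sites and the TATA box on both strands at 1 overlapping place.

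Divided by exon length, the levels can be set against each other. The order in vehicle was MICB at 869 ± 4.61 normalized counts per kb (SD, n = 3), MICA at 704 ± 38.6, ULBP2 at 202 ± 7.01, RAET1G at 140 ± 34.7, RAET1L at 98.2 ± 24.4, ULBP3 at 68.1 ± 8.47, RAET1E at 24.7 ± 1.16 and ULBP1 at 2.83 ± 2.73. Library values overlapped between RAET1G and RAET1L and between RAET1L and ULBP3, and the other neighbours in this order were separate. After guadecitabine RAET1L stood above RAET1G, at 265 ± 20.2 normalized counts per kb (SD, n = 3) against 79.1 ± 10.4, and RAET1G overlapped with ULBP3 at 69.0 ± 10.99. MICB at 1314 ± 44.6, MICA at 1075 ± 24.1 and ULBP2 at 577 ± 30.0 kept the top of the order, and RAET1E at 20.2 ± 7.62 and ULBP1 at 4.59 ± 2.42 the bottom.

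The summed level of the 8 genes was 2084, 2028 and 2216 normalized counts per kb in vehicle and 3426, 3345 and 3441 in guadecitabine. The MIC genes made up 74.1%, 77.1% and 72.7% of this sum in vehicle and 68.1%, 71.3% and 71.2% in guadecitabine. The share of ULBP2 was 9.67%, 9.65% and 9.46% in vehicle and 17.8%, 16.6% and 16.4% in guadecitabine. The log2 ratio of the summed ULBP and RAET1 genes to the summed MIC genes went from -1.561 ± 0.171 (SD, n = 3) to -1.238 ± 0.124 (SD, n = 3), a difference of 0.323 with a two-sided exact permutation p of 0.1, or 0.2 when adjusted over the 4 ratios compared. All treated libraries were above all vehicle libraries in this ratio. Ratios of RAET1G and RAET1L to ULBP2 were added after the values were seen and are given as a description. The log2 ratio of RAET1G to ULBP2 went from -0.562 ± 0.317 (SD, n = 3) to -2.874 ± 0.186 (SD, n = 3), whereas the ratio of RAET1L to ULBP2 overlapped between the groups, at -1.071 ± 0.305 (SD, n = 3) and -1.125 ± 0.061 (SD, n = 3).

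The exons of the ligand genes were compared because reads of near-identical copies can be shared between them. The exons of ULBP2 and RAET1L were 95.5% identical over 798 aligned bases, those of RAET1G and RAET1L 93.8% over 739 and those of ULBP2 and RAET1G 93.4% over 732. In RAET1L, 57.4% of all 50-base stretches of the exons were found once in the genome, and 38.1% also occurred in ULBP2. The unique share was 70.0% in ULBP2 and 79.6% in RAET1G. With stretches of 100 bases it was 88.9% in RAET1L, 92.0% in ULBP2 and 97.3% in RAET1G. MICA and MICB were 92.5% identical over 1351 aligned bases, but 95.9% and 94.2% of their 50-base stretches were unique. The read length and how reads with several matches were handled are not given in the sources used here, so the split of counts among ULBP2, RAET1L and RAET1G is uncertain. The antisense gene RAET1E-AS1 runs across both RAET1E and RAET1G, and its exons cover 68 exon bases of the former and 138 of the latter. Exons of MICB-DT, on the strand opposite to MICB, cover 55 exon bases of MICB. Whether strand was used in the counting is not stated, and without it the reads of these bases cannot be told apart from antisense reads. On its own strand, RAET1E shares 921 exon bases with another coding gene of the annotation that has no symbol. MICA shares 62 exon bases with a long noncoding gene on its own strand.

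**Figure D3:**
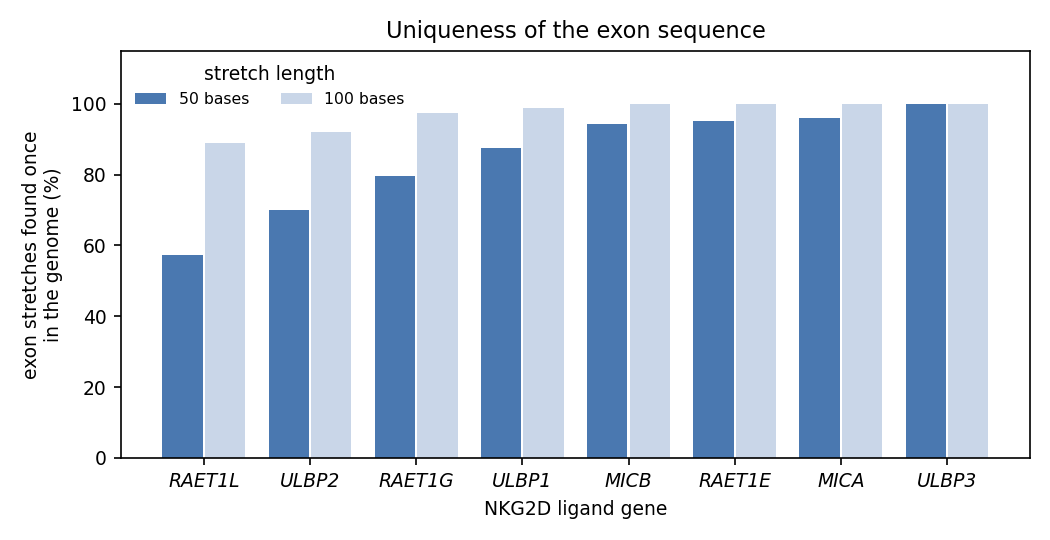
Share of exon stretches of 50 bases (dark bars) and 100 bases (light bars) found once in the genome (y axis, percent) for each ligand gene (x axis). RAET1L has the smallest share at 50 bases, 57.4%, and ULBP3 has the largest.

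Genes near the ligand genes were read to see whether whole stretches of the chromosome moved. Of 64 genes whose start lies within 500 kb of a ligand gene, 54 were tested, 10 rose and 8 fell, with a median log2 fold change of -0.01. Of all genes tested, 19.3% rose and 18.4% fell, so these counts were near the shares over all genes. Around ULBP2 and RAET1L, 9 neighbours were tested, 1 rose and 1 fell. The nearest neighbour on the centromeric side of that cluster, LRP11, which encodes a protein of the LDL receptor family, had 1341, 1308 and 1284 normalized counts in vehicle and 675, 566 and 641 in guadecitabine (log2 fold change -1.06, edgeR adjusted p = 8.38e-05). Every treated library of LRP11 was below every vehicle library. PCMT1, an enzyme that repairs damaged aspartyl residues in proteins, rose by a log2 fold change of 0.40 (edgeR adjusted p = 0.0308). PPP1R14C, the nearest neighbour on the other side, had 0, 0 and 19 counts in vehicle and 6, 0 and 2 in guadecitabine and was below the filter.

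Around MICA and MICB, 45 neighbours were tested, 9 rose and 7 fell, with a median log2 fold change of 0.00. These counts were also near the shares over all genes tested, 19.3% higher and 18.4% lower. HLA-B, the nearest neighbour of MICA, encodes a classical MHC class I heavy chain and rose by a log2 fold change of 0.71 (SE 0.153, edgeR adjusted p = 0.00622). DDX39B, the nearest neighbour of MICB, had 8, 11 and 24 counts in vehicle and 23, 9 and 16 in guadecitabine (edgeR adjusted p = 0.539). Only 327 bp of exon were counted for DDX39B, so these low counts may not give the level of the whole gene. The cytokine gene TNF went from 3, 1 and 18 counts to 1098, 532 and 939 (log2 fold change 7.17, edgeR adjusted p = 1.96e-06). The related LTA went from 0, 3 and 13 counts to 380, 174 and 346, with a log2 fold change of 6.10. ZBTB12, a zinc finger gene, fell by 2.01 on the log2 scale. MICA and MICB thus lay between neighbours that rose, neighbours that fell and neighbours that were not called.

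**Figure D4:**
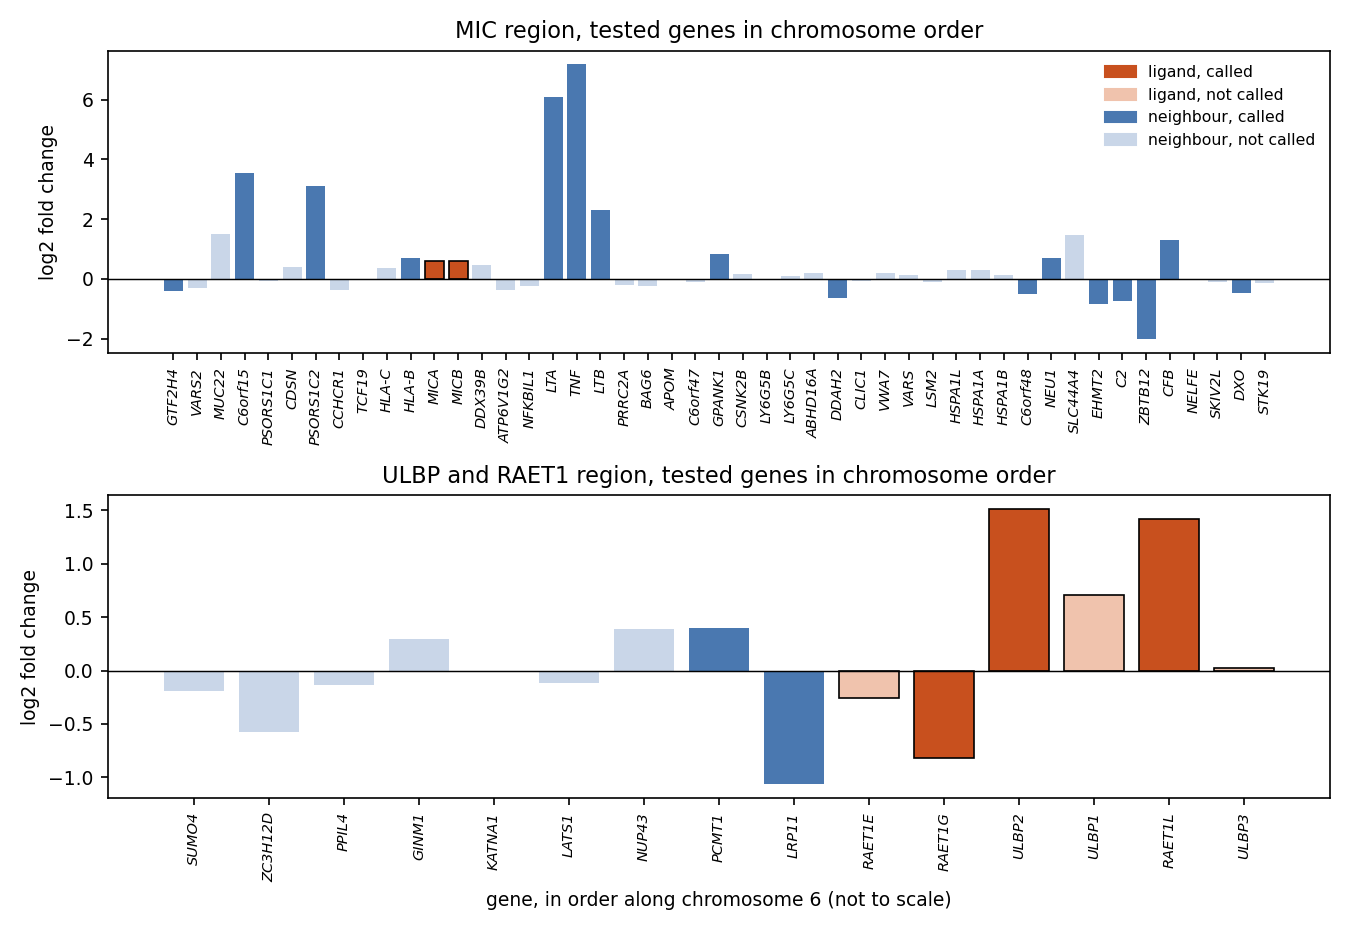
Log2 fold change of guadecitabine over vehicle (y axis) of every tested gene within 500 kb of a ligand gene, in order along the chromosome (x axis, not to scale), with ligand genes in orange and neighbours in blue and pale bars for genes not called. TNF and LTA, at 7.17 and 6.10, are the tallest bars of the MIC region, and LRP11, at -1.06, is the lowest of the ULBP and RAET1 region.

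On the receptor side of the pathway, KLRK1, the gene of NKG2D, was not analysed here. HCST, the adaptor that carries the signal of human NKG2D, had 0, 2 and 6 counts in vehicle and 8, 2 and 5 in guadecitabine and was below the filter. Of the 4 relay genes tested, 3 rose, where 19.3% of all genes tested did. PIK3CD, a catalytic subunit of PI3 kinase, had a log2 fold change of 0.95 (edgeR adjusted p = 0.000255), PLCG2, a phospholipase, had 0.92 (edgeR adjusted p = 0.00462) and the adaptor GRB2 had 0.30 (edgeR adjusted p = 0.0492). The call of GRB2 was lost with any 1 library left out, with an edgeR adjusted p between 0.0537 and 0.167. GRB2 also lost its call without a filter (edgeR adjusted p = 0.108) and with DESeq2 size factors (edgeR adjusted p = 0.0613). VAV1, an exchange factor of blood cells, had 18, 18 and 55 counts in vehicle and 48, 26 and 41 in guadecitabine and was not called.

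Among 9 genes for proteases that release ligands from the cell surface, their inhibitor TIMP3 and factors of the endoplasmic reticulum, 3 rose, 3 fell and 3 were not called. The shares over all genes tested were 19.3% higher and 18.4% lower. The secreted proteases rose most. MMP9 had 5, 9 and 17 counts in vehicle and 580, 405 and 552 in guadecitabine (log2 fold change 6.01, edgeR adjusted p = 2.50e-06), and MMP2 had a log2 fold change of 2.96. ERAP1, an aminopeptidase of the endoplasmic reticulum, had 0.59. ADAM10, a membrane protease known to cut NKG2D ligands, fell by 0.66 on the log2 scale (edgeR adjusted p = 0.00488), ADAM9 fell by 0.49 and TIMP3 fell by 0.47. ADAM17 of the same list was not called and went the other way, at a log2 fold change of 0.36 (edgeR adjusted p = 0.0533). The call of ADAM9 was lost with either of vehicle replicates 1 and 2 or guadecitabine replicates 2 and 3 left out, with an edgeR adjusted p of 0.0679 to 0.0998. MMP14, a membrane-bound metalloproteinase, was not called, at a log2 fold change of -0.23 (edgeR adjusted p = 0.237).

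Of 18 genes for factors linked to transcription of the ligands, 5 rose, 3 fell and 10 were not called, with a median log2 fold change of 0.14. Over all genes tested, 19.3% rose and 18.4% fell. NFKB1, a subunit of NF-κB, had a log2 fold change of 0.77 (edgeR adjusted p = 0.000326), TFAP2A, which encodes AP-2 alpha, had 1.203 and STAT3 had 0.39, and RELA, another NF-κB subunit, had 0.36. CTCF fell by 0.66 and SP1, which binds GC boxes, fell by 0.49 on the log2 scale. ATF4, a factor of the integrated stress response, was not called, at -0.11 (edgeR adjusted p = 0.372). The rising genes of this list numbered 3 without vehicle replicate 1 or vehicle replicate 3, and 2 without vehicle replicate 2 or guadecitabine replicate 3. The call of RELA was lost with any 1 library left out other than guadecitabine replicate 1, and that of STAT3 without vehicle replicate 2 or guadecitabine replicate 3. RELA also lost its call without a filter (edgeR adjusted p = 0.0523).

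A list of other ligands, costimulatory molecules and cytokines that act on natural killer cells moved in both directions, with 7 of 15 tested genes higher and 3 lower. Among all genes tested, 19.3% were higher and 18.4% lower. ICAM1, the adhesion ligand of LFA-1, had 1950, 1832 and 1963 normalized counts in vehicle and 14878, 19189 and 16646 in guadecitabine (log2 fold change 3.14, edgeR adjusted p = 3.45e-07). TNFRSF9, which encodes the receptor 4-1BB and is no ligand, had a log2 fold change of 2.55, and ICAM2, another LFA-1 ligand, had 1.91. CLEC2B, the ligand of NKp80, fell by 1.26 on the log2 scale, CD58, the ligand of CD2, fell by 0.36 and PCNA, a replication factor known as an inhibitory ligand of NKp44, fell by 0.62. The falling genes numbered 1 without vehicle replicate 1 or guadecitabine replicate 3, where CLEC2B and CD58 lost their calls. CD58 also lost its call with library totals alone (edgeR adjusted p = 0.0843) and without a filter (edgeR adjusted p = 0.0662). BAG6, a chaperone recognised by NKp30, had a log2 fold change of -0.24 and was not called (edgeR adjusted p = 0.135).

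Among 15 genes for ligands and cytokines that restrain natural killer cells, 6 rose and 2 fell, beside 19.3% and 18.4% of all genes tested. B2M, the light chain of MHC class I, had a log2 fold change of 0.40 (edgeR adjusted p = 0.00596). CDH2, an N-cadherin, had 29, 13 and 118 counts in vehicle and 1309, 513 and 1043 in guadecitabine, a log2 fold change of 4.50. TGFB2 fell by 0.86 on the log2 scale. CDH1, the E-cadherin bound by KLRG1, had 38, 25 and 87 counts in vehicle and 20, 6 and 13 in guadecitabine and fell by 1.62. Its call was lost without a filter and with vehicle replicate 1 or any guadecitabine library left out, with an edgeR adjusted p of 0.0544 to 0.114. The list thus held changes in both directions beside the rise of ULBP2, RAET1L, MICA and MICB.

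Of 11 genes for death receptors and for protection against lysis, 7 rose, 3 fell and 1 was not called, with a median log2 fold change of 0.58. The shares of all genes tested that rose and fell were 19.3% and 18.4%. TNFRSF10A, a receptor of TRAIL, had a log2 fold change of 0.84 (edgeR adjusted p = 0.000457), and CFLAR, an inhibitor of caspase-8 activation, had 0.82. CD55, which limits complement, had 0.59. SERPINB9, the inhibitor of granzyme B, fell by 0.57 on the log2 scale (edgeR adjusted p = 0.00628), CD46, another complement regulator, fell by 0.60, and TNFRSF1A fell by 0.34. The falling genes numbered 1 without vehicle replicate 2 or guadecitabine replicate 3, where CD46 and TNFRSF1A lost their calls. TNFRSF1A also lost its call without a filter (edgeR adjusted p = 0.0727).

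**Figure D5:**
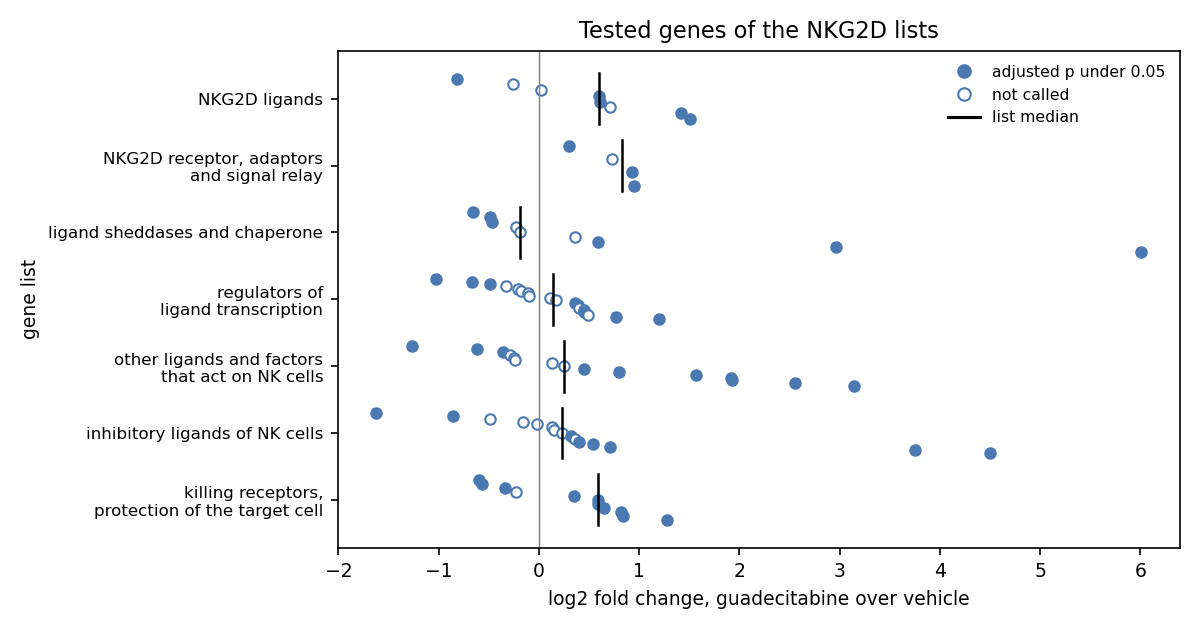
Log2 fold change of guadecitabine over vehicle (x axis) of each tested gene in 7 lists (y axis), filled where the adjusted p was under 0.05, with a black line at each list median. The medians run from -0.18 for the sheddases to 0.83 for the receptor and relay genes, and all lists but that of the receptor hold called genes on both sides of 0.

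The genes whose pattern over the 6 libraries was most like that of a ligand gene were sought among 10420 genes with a mean of at least 100 normalized counts, as a description, by Pearson's r of log2 normalized counts. For ULBP2 they were MAEL, a germline gene of transposon silencing (r = 0.9996), and MMP1, an interstitial collagenase (r = 0.9993). For RAET1L they were the kinase gene LYN (r = 0.9992) and the actin-like ACTBL2 (r = 0.9982), and for MICB the disulfide isomerase gene PDIA5 (r = 0.9993) and FTL, the ferritin light chain (r = 0.9992). The points of each r share library, depth and treatment, and MAEL and MMP1 had log2 fold changes of 4.56 and 5.32, larger than that of ULBP2. LYN and PDIA5 had smaller ones than the ligand genes they tracked, at 0.56 and 0.44, whereas ACTBL2 and FTL had larger ones, at 3.32 and 1.09.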

How the data were processed

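RNA sequencing libraries of MDA-MB-231 cells, 3 given vehicle and 3 given guadecitabine, were grouped by their labels, as were the replicate numbers. The authors aligned reads to hg19 (the same assembly as GRCh37) with STAR 2.3.1z, used iRNA-seq to count reads in exons, and deposited the raw counts of each RefSeq transcript. Regularized log2 values were deposited too, with the fold changes, standard errors and p-values of their own DESeq2 comparison, none of which was used. Per-sample columns without a label numbered 0.

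The test of the counts used edgeR 4.0.16 under R 4.3.3 (TMM, filterByExpr with a minimum count of 10, quasi-likelihood test, Benjamini-Hochberg adjustment over 13322 genes, threshold 0.05). Standard errors and 95% intervals were derived from the F statistic. Simulated data with known changes were used to test this fit. Levels per kb are TMM normalized counts divided by the deposited exon length. Ratios per library were tested with exact permutation tests in scipy 1.17.1. Counts carry counting error beside the spread between replicates, and reads are not independent molecules.

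The ligand genes, the gene lists, the motifs and the tests were chosen with earlier results of these data known. The text names all ligand and receptor genes. From each other list it names up to 3 called genes per direction by adjusted p and the 2 of highest level. Among neighbours it names the nearest on each side and up to 3 called genes of each region, and for 3 ligand genes the 2 genes of closest pattern. ESR1 and PGR were named after their values were seen, and some genes the rule allows are not reported here. Exons came from GENCODE release 44 on GRCh37. Promoter windows were taken from RefSeq (GRCh38.p14) and placed on GRCh37 by exact match, each at 1 place. Alignments were made with Biopython 1.88.

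Alternatives were a replicate block, the DESeq2 1.42.0 Wald test and size factors, library totals alone, no filter, at least 10 counts in every library, a threshold of 1.5-fold, background subtraction in vehicle replicate 3 and each library left out. The ratios of RAET1L and RAET1G to ULBP2 were added after the data were seen.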

Additional observations from a re-analysis of the deposited data

How the results depend on the processing

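Of 110 alternative values of the ligand genes' log2 fold changes, 102 kept their direction and their side of the threshold. With each library left out in turn, they ranged from 0.576 to 0.654 for MICA, from 0.562 to 0.611 for MICB, from 1.465 to 1.539 for ULBP2, from 1.275 to 1.636 for RAET1L, from -0.979 to -0.615 for RAET1G, from -0.518 to -0.017 for RAET1E, from 0.254 to 1.957 for ULBP1 and from -0.118 to 0.132 for ULBP3. ULBP3 turned negative without vehicle replicate 2 (-0.036) and without guadecitabine replicate 1 (-0.118). Ligand genes called higher numbered 4 to 5 and lower 0 to 1, 0 without vehicle replicate 1 or guadecitabine replicate 2. All genes called higher ranged from 1706 to 3002 and lower from 1629 to 2575, the smallest counts without guadecitabine replicate 3. List genes called ranged from 23 to 29 higher and 8 to 15 lower, and neighbours from 8 to 12 higher and 4 to 11 lower.

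Against a threshold of 1.5-fold, 818 genes were called higher and 696 lower. Among them were 2 ligand genes higher and 0 lower, 11 list genes higher and 1 lower, and 6 neighbours higher and 3 lower. MICA (0.608), MICB (0.595) and RAET1G (-0.817) were then not called. Their fitted values lay beyond 1.5-fold in size, but that test asks whether a change exceeds the threshold by more than its error. Without a filter the median log2 fold change of all genes was -0.107 and 5 neighbours were lower. The log2 ratio of MICB to MICA changed sign without vehicle replicate 1 (0.024) and without guadecitabine replicate 2 (0.01), and that of RAET1L to ULBP2 without vehicle replicate 3 (0.106); the cause was not tested. Over libraries left out, the ratio of MICB to MICA ranged from -0.061 to 0.024 and that of RAET1L to ULBP2 from -0.198 to 0.106. The vehicle level of MICB was 859.2 with library totals alone and 879.7 with background subtraction, and that of RAET1E 23.12 with background subtraction. ULBP1 could not be fitted with background subtraction or with 10 counts in every library. The labels share replicate numbers, but same-numbered libraries did not deviate together (correlations of -0.05, 0.049 and -0.037). With a replicate block, the log2 fold changes were 0.610 for MICA, 0.595 for MICB, 1.509 for ULBP2, 1.439 for RAET1L and -0.812 for RAET1G, and 2424 genes were higher and 2230 lower. Among the list genes, the block ended the calls of GRB2 (edgeR adjusted p = 0.0877), RELA (0.0524), CDH1 (0.0638) and TNFRSF1A (0.0546). The depth behind ULBP1 was 2 to 26 counts per library.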
